A study of Mus musculus with 4 samples.

Results

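The Zfp genes, named for zinc finger protein, gave 78 of the 5332 peaks in a table of regions whose chromatin accessibility differed between Sin3B+/+ and Sin3B-/- LT-HSCs. They were chosen by name alone, as every peak whose assigned gene symbol was Zfp followed by a digit, and they belonged to 74 of the 4376 genes in the table. Of the 78 peaks, 77 were more accessible in Sin3B-/- LT-HSCs and 1, in an intron of Zfp423, was less accessible. All 5332 listed peaks had been called different by the authors, and 95.7% of them were higher in Sin3B-/-. ATAC-Seq was used for the measurement. This assay uses the transposase Tn5, which inserts sequencing adapters where DNA is not wrapped in nucleosomes. The cells were LT-HSCs, the long-term hematopoietic stem cells of mouse bone marrow, sorted as L-S+K+Flk2-CD48-CD150+ from C57BL/6 mice. The 4 libraries were 2 labelled WT, here Sin3B+/+, and 2 labelled KO, here Sin3B-/-, and each held cells pooled from 2 mice. The study also names these controls Sin3B F/F, that is, carrying the floxed alleles, and whether they carried Vav1-iCre is not given in the sources used here. In the Sin3B-/- mice, both Sin3B alleles likewise carry loxP sites (Sin3B F/F) and are recombined by Vav1-iCre, a recombinase active in blood cells from fetal life onward, so the loss is not particular to stem cells and is not acute. The age of these mice is not given in the sources used here.

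Sin3B is a scaffold of a histone deacetylase complex, and deacetylated histones accompany closed chromatin. Most Zfp genes encode proteins with tandem zinc fingers of the C2H2 kind, in which a zinc ion holds a small fold that reads a few bases of DNA. Many of them also carry a KRAB domain, which recruits the corepressor Trim28 and with it heterochromatin proteins and histone methyltransferases, and these proteins are best known for silencing retroelements. KRAB zinc finger genes have multiplied by tandem duplication, so they lie in chains of near copies, in mouse above all on a few chromosomes. Some members are of other kinds. Zfp36 encodes tristetraprolin, which has CCCH fingers and promotes mRNA decay, and Zfp598 encodes a ubiquitin ligase that senses collided ribosomes.

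The sequences at 3 peaks far from a start mark both ends of the range of change. They are the 300 bases around the peak centre on the plus strand of GRCm38, at chr8:87833293-87833592 for Zfp423, the only peak lower in Sin3B-/-, and at chr17:24674342-24674641 for Zfp598 and chr15:103315125-103315424 for Zfp385a, the intron peaks with the largest gain. Capitals would mark a match to a motif searched for (ETS core CCGGAAGT, NRF1 site GCGCATGC, YY1 core AAGATGGC, E2F TTTCCCGC or TTTGGCGC, CHR TTTGAA, CRE TGACGTCA, SP GGGCGGGG, ZBTB33 TCTCGCGA, on either strand), and none of these letters is in the 3 windows.
Zfp423: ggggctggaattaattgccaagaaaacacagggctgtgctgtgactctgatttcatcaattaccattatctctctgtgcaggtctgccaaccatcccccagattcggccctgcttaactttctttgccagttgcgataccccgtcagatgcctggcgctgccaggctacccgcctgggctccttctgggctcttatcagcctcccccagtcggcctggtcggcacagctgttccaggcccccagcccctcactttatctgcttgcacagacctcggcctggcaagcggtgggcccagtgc
Zfp598: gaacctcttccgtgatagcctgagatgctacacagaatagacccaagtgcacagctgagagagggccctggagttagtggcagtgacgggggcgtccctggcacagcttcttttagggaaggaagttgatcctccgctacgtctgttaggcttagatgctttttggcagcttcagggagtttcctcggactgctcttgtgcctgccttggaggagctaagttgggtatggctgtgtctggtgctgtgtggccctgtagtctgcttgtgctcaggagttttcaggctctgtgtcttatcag
Zfp385a: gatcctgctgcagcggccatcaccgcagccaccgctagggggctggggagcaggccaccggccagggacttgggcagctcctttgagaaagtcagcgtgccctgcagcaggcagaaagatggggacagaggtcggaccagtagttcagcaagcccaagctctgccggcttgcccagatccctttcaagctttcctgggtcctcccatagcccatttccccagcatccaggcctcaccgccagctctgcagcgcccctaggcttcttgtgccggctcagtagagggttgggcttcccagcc

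Promoters are shown for the peak with the highest level, Zfp78, and for 2 pairs of genes on chromosome 17 whose start regions are near copies of each other. Each is the 250 bases before the start in RefSeq (GRCm38.p6), written in the direction of transcription, at chr7:6363058-6363307 for Zfp78 on the plus strand, chr17:21962309-21962558 for Zfp943 on the plus strand, chr17:22361213-22361462 for Zfp758 on the plus strand, chr17:55878954-55879203 for Zfp119a on the minus strand and chr17:55891843-55892092 for Zfp959 on the plus strand. Capitals mark matches to the SP letters, which Zfp78, Zfp943 and Zfp758 hold once each and Zfp119a and Zfp959 do not hold.
Zfp78: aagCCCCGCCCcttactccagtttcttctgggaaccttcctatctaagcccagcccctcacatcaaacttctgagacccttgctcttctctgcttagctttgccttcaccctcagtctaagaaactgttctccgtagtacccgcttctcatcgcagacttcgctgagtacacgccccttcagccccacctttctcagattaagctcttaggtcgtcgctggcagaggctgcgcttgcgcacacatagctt
Zfp943: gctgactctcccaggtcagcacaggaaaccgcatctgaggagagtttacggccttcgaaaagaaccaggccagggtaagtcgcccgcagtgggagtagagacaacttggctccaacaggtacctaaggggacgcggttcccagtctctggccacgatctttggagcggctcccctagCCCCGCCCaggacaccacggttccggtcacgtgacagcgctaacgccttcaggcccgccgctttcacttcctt
Zfp758: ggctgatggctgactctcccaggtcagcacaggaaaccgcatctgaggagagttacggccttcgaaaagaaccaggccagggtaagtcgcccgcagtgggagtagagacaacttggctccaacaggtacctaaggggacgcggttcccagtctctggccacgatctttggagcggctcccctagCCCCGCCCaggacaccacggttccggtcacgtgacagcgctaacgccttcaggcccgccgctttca
Zfp119a: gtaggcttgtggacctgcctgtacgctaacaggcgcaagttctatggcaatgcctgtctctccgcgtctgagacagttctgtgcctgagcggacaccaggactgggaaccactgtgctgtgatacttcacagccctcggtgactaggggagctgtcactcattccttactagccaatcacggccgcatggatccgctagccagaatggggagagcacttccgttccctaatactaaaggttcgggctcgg
Zfp959: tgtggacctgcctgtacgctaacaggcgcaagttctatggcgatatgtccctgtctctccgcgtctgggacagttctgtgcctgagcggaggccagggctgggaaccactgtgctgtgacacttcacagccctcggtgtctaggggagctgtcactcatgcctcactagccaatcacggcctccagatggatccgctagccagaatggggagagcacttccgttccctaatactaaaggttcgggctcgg
In a global alignment, Zfp943 and Zfp758 were identical at 242 of 258 columns (93.8%), and Zfp119a and Zfp959 at 232 of 257 (90.3%). For Zfp943 and Zfp119a, which are not such a pair, the value was 140 of 282 (49.6%).

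The levels used here are normalised read counts per peak, the reads multiplied by 1 factor per library. The table held only peaks that the authors had already called different, so every value below describes a selected set, and the contrast that selected the peaks is the one described. Summed over all 5332 peaks, the levels ran from 1657641 to 1986378 in the Sin3B+/+ libraries and from 2837467 to 3102888 in the Sin3B-/- libraries. How deeply the libraries were sequenced beyond the listed peaks is unknown. Within 0.1 of a unit, 100% of the values were multiples of 1 unit per library, which stands for 1 read. The unit was 0.228 and 0.343 for Sin3B+/+ and 0.625 and 1.0 for Sin3B-/-, so a read weighed more in the Sin3B-/- libraries. In these units the Zfp78 peak held 10176 and 5647 in Sin3B+/+ and 5541 and 3214 in Sin3B-/-. The Zfp598 intron peak held 137 and 84, then 149 and 116. At Zfp78 the reads before scaling were thus fewer in Sin3B-/-, while its scaled level there was higher. The factor of a library is the same at every peak, so this is not particular to Zfp78. Whether the factors reflect sequencing depth was not tested. The lowest Zfp value was 15 such units. The summed Zfp levels were 35891 and 31285 in the Sin3B+/+ libraries and 50832 and 53955 in the Sin3B-/- libraries. As a share of the table, they came to 1.81% and 1.89% for Sin3B+/+ libraries, then 1.79% and 1.74%. The share of the table that lay in Zfp peaks was thus lower in both Sin3B-/- libraries, while the levels themselves were higher. The nearest shares of the 2 genotypes, 1.81% and 1.79%, were closer than the 2 libraries within either genotype. Accessibility does not show expression, so the sort could not be checked here against marker RNA. Of 8 LT-HSC marker genes, 4 (Slamf1, Procr, Fgd5 and Hoxb5) had a listed peak, and of 10 marker genes of other cells Itga2b had one. Of annotated protein-coding genes other than Zfp genes 15.7% did, and these counts are a description only.

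Across the 78 Zfp peaks the median log2 ratio of summed levels, Sin3B-/- over Sin3B+/+, was 0.68, with a middle range from 0.60 to 0.84. Over the whole table it was 0.76, from 0.63 to 0.97. Of the 78, 50 lay at or below the table's median and 28 above it. The levels of the 2 groups did not overlap in any of the 78 peaks, which is true of all peaks of the table, 95.7% with Sin3B-/- higher and 4.29% with Sin3B-/- lower. Within a group the libraries were close. The median absolute log2 difference between the Sin3B+/+ libraries was 0.21 over the Zfp peaks and its largest value was 0.81, and between the Sin3B-/- libraries these values were 0.14 and 0.42. The first Sin3B+/+ library was the higher of its pair in 64 of the 78 peaks, and the first Sin3B-/- library in 30. By limma on log2(level + 1), with Benjamini-Hochberg adjustment over the table, 77 Zfp peaks were called higher and 1 lower, with standard errors from 0.20 to 0.33 and adjusted p-values from 2.94e-09 to 0.0253. The same test called every peak of the table, 95.7% higher and 4.29% lower, so it does not set the Zfp peaks apart. Among peaks with a level above the table's median, 46 of 46 Zfp peaks and 99.8% of the listed peaks were called higher. Fewer calls were made when a Sin3B-/- library was left out, in the table as a whole too, since 33 peaks (42.3%) were called higher without the first of them, when 62.2% of the table was, and 23 (29.5%) without the second, when 33.0% of the table was. They also rest on the scaling, because each library centred on its own median over the table moved the Zfp median to -0.06 and left 3 peaks called higher (7.84% of the table) and 3 called lower (4.82% of the table). Those higher were the intron peaks of Zfp598 and Zfp385a and the exon peak of Zfp174, and those lower were Zfp423, Zfp869 and Zfp239, the last named after its values were seen. Zfp423 was lower under both scalings, but centring lowers every ratio, so its result there was fixed in advance.

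A log2 ratio of at least 1 was seen in 10 Zfp peaks (12.8%), against 22.8% of the table. Level and ratio moved together. Over the 77 Zfp peaks that were higher in Sin3B-/-, the ratio fell with log2 level with a Pearson r of -0.69 and a Spearman rho of -0.64, and over all 5103 such peaks of the table with -0.62 and -0.69. These correlations are across peaks, which share libraries and which had to pass a test whose reach depends on level. The Zfp peaks had a median level of 329.9, against 261.3 for the other listed peaks. The table was split by level into 3 equal parts. In the lowest the median ratio was 1.03 for 15 Zfp peaks and 1.01 for the others, in the middle 0.71 for 31 and 0.73, and in the highest 0.61 for 32 and 0.64. At like levels the Zfp medians were thus close to the others.

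**Figure D1:**
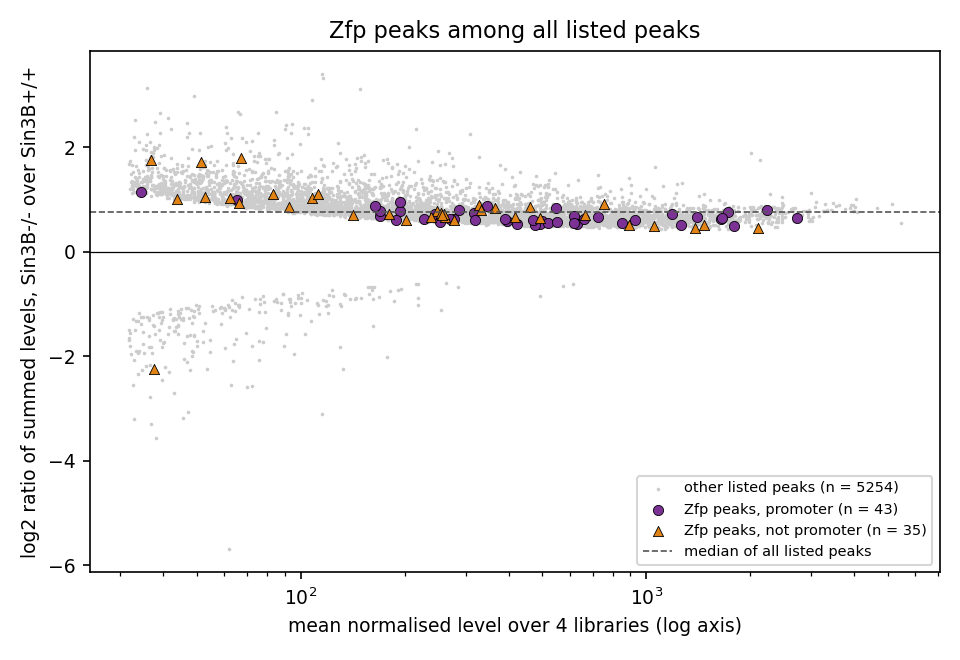
Each point is a peak, with its mean normalised level over the 4 libraries on a log axis across and its log2 ratio (Sin3B-/- over Sin3B+/+) up. Purple circles are the 43 Zfp promoter peaks, orange triangles the other 35 Zfp peaks and grey points the other 5254 listed peaks, and all Zfp peaks but Zfp423 lie above 0, around the dashed median of 0.76.

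Zfp423 encodes a protein with many zinc fingers that partners early B cell factors and SMAD proteins, and that is known for its part in adipocyte and cerebellar development. Its peak, at chr8:87833128-87833757, lay in an intron of the gene, 29003 bases upstream of its nearest annotated start and downstream of another. Its level was 55.0 and 69.2 in the Sin3B+/+ libraries and 11.2 and 15 in the Sin3B-/- libraries, where it rested on 18 and 15 of the units that stand for 1 read. Both Sin3B-/- values were far below both Sin3B+/+ values. The log2 ratio was -2.24, and the limma estimate was -2.16 ± 0.33 (SE, n = 2 libraries per genotype, adjusted p = 3.34e-09). With the replicate block it was also called lower, as were 228 peaks of the table against 229 without the block. The larger pseudocount left it called lower too. With 1 library left out its estimate ran from -2.36 to -1.97. All these fits reuse the libraries that selected the peak, so they add no independent evidence. The table held no second Zfp423 peak.

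The largest gains were at weak peaks away from starts. Zfp598 had 2 peaks. The one at its start, at chr17:24669301-24669853, had levels of 282 and 209 in Sin3B+/+ and 431 and 465 in Sin3B-/-, a log2 ratio of 0.87. The one 4744 bases further in, in an intron at chr17:24674329-24674653, had levels of 31.3 and 28.8 in Sin3B+/+ and of 93.1 and 116 in Sin3B-/-. Its log2 ratio of 1.80 was the highest of all Zfp peaks, with a limma estimate of 1.76 ± 0.27 (SE, adjusted p = 2.94e-09). The intron peak was thus the weaker and the more changed of the pair.

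Zfp385a, also called HZF for hematopoietic zinc finger, encodes an RNA-binding protein with a few zinc fingers that has been studied in megakaryocytes, and it too had 2 peaks of this kind. Its start peak, at chr15:103339110-103340381, had levels of 912 and 830 in Sin3B+/+ and 1227 and 1223 in Sin3B-/-, a log2 ratio of 0.49. Its intron peak, at chr15:103315034-103315515 and 8236 bases past the nearest start of the gene, had 27.4 and 20.9 in Sin3B+/+ and 82.5 and 75 in Sin3B-/-. The log2 ratio there was 1.71 and the limma estimate 1.68 ± 0.29 (SE, adjusted p = 1.74e-07). The nearest annotated start of any gene was that of Gpr84, at 4662 bases.

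Zfp174, a member with a SCAN domain, had its peak in an exon, at chr16:3855779-3856357 and 8800 bases past its start. Levels went from 19.4 and 14.4 in Sin3B+/+ to 52.5 and 61.0 in Sin3B-/-, and the log2 ratio was 1.75 (limma 1.70 ± 0.33 SE, adjusted p = 2.03e-06). The other peaks with a ratio of at least 1 were at Zfp944 (1.15), Zfp335 (1.10), Zfp467 (1.10), Zfp652 (1.04), Zfp664 (1.03), Zfp41 (1.03) and Zfp800 (1.0), with Zfp467 and Zfp41 named after their values were seen. None of these 10 peaks covered an annotated start of its own gene. Their mean levels ran from 34.4 at Zfp944 to 112 at Zfp467, all below the median of the Zfp peaks.

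**Figure D2:**
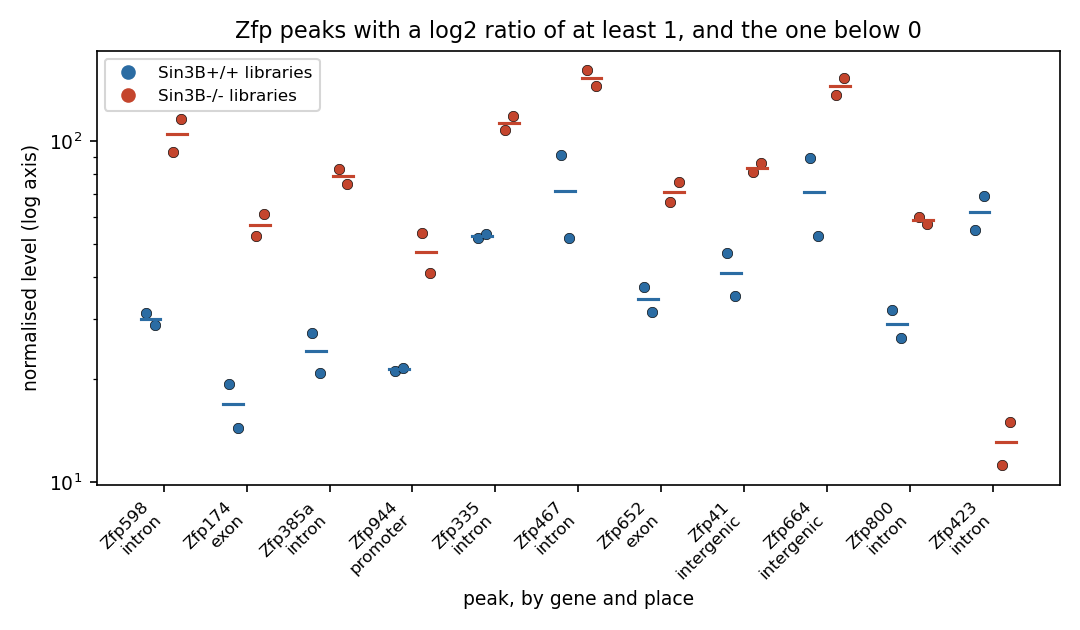
Points are the normalised levels, on a log axis, of each library at the 10 Zfp peaks with a log2 ratio of at least 1 and at Zfp423, with Sin3B+/+ in blue, Sin3B-/- in red and a bar at each mean (n = 2 libraries). Red lies above blue at 10 peaks and below it at Zfp423, and no peak has overlapping groups.

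Zfp335 encodes a protein found with histone methyltransferase complexes and needed for T cell maturation. Its intron peak had levels of 51.8 and 53.5 in Sin3B+/+ and of 108 and 118 in Sin3B-/-. A second peak in the same region was assigned to Zfp335os, an antisense gene, and lay 590 bases upstream of the Zfp335 start, with 44.5 and 42.9 in Sin3B+/+ and 90.0 and 84.0 in Sin3B-/-. The assay has no strand, so the second peak could belong to either gene. Both were about as far apart between genotypes, with log2 ratios of 1.10 and 0.99.

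Zfp664 had a peak in an intron, 10516 bases from its start, and another beyond its end, 67004 bases from the start. The first had levels of 257 and 202 in Sin3B+/+ and 410 and 440 in Sin3B-/-, a log2 ratio of 0.89. The second had 89.2 and 52.8 in Sin3B+/+ and 136 and 153 in Sin3B-/-, a log2 ratio of 1.03. The Sin3B+/+ libraries were far apart at the second peak, though neither reached the Sin3B-/- levels. At Zfp652, whose product acts as a repressor with CBFA2T corepressors, the peak lay 788 bases past the start in an exon, and levels went from 37.4 and 31.5 in Sin3B+/+ to 66.2 and 76.0 in Sin3B-/-.

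Promoter peaks made up the larger part of the family. A peak was counted as a promoter when its centre lay from 1000 bases before to 100 bases after any annotated start. By this count 43 of the 78 Zfp peaks were promoters, or 55.1% (95% Wilson interval 44.1 to 65.7), against 33.0% (31.7 to 34.3) of the other 5254 listed peaks. Of the rest, 25 lay in introns, 3 in exons and 7 between genes. In all, 49 peaks covered an annotated start of their own gene, some of them with a centre just past the first exon. With a promoter set at 500 bases on either side of a start the shares were 64.1% and 35.3%. By the distance to the assigned gene in the deposited table they were 33.3% (23.9 to 44.4) and 20.8%. Level moved with this share, and its part in it was not tested. By level, the Zfp share was 13.3% in the lowest part of the table by level against 9.88% of the others, 58.1% in the middle part against 25.8% of the others, and 71.9% against 63.5% in the highest part.

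All 43 promoter peaks were higher in Sin3B-/-, with log2 ratios from 0.49 to 1.15 and a median of 0.63. Of the other listed promoters 98.6% were higher, and their median was 0.66. The 35 Zfp peaks outside promoters had a median of 0.75 and the other listed peaks outside promoters 0.83. The 49 peaks over a start of their own gene were narrow in range, from 0.49 to 0.96, while the other 29 ran from -2.24 to 1.80. The start peaks were also the stronger, with a median level of 477 against 188.

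**Figure D3:**
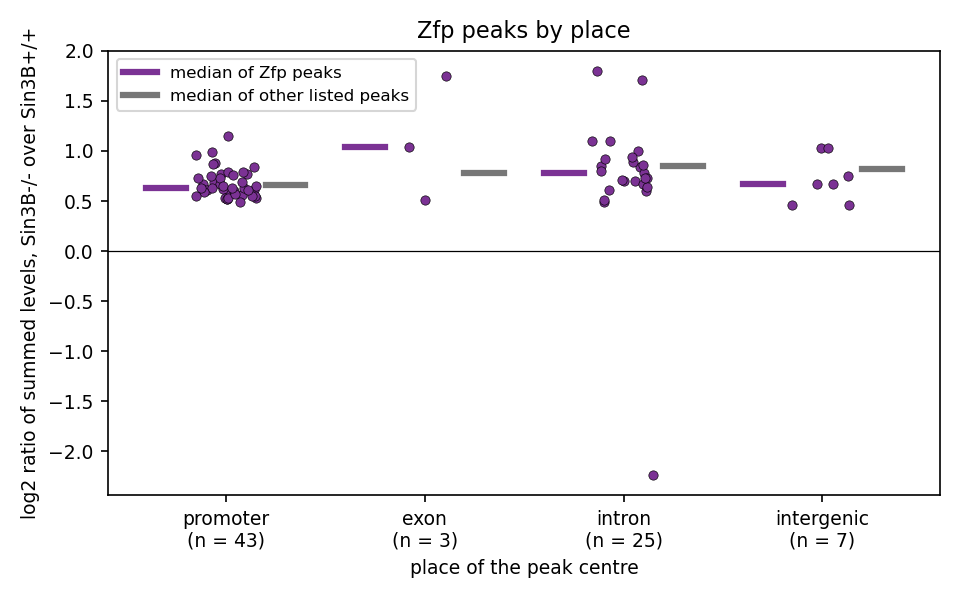
Points are the log2 ratios (Sin3B-/- over Sin3B+/+) of the 78 Zfp peaks by the place of the peak centre, spread sideways at random, with purple bars at their medians and grey bars at the medians of the other listed peaks. The 43 promoter peaks are packed between 0.49 and 1.15, and the exon and intron peaks reach from -2.24 to 1.80.

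The strongest Zfp peak was at Zfp78, at chr7:6362345-6363454, over the start whose sequence is given above. Its levels went from 2322 and 1936 in Sin3B+/+ to 3462 and 3214 in Sin3B-/-, a log2 ratio of 0.65 (limma 0.65 ± 0.20 SE, adjusted p = 0.00195). Next was the start of Zfp446, a member with a SCAN domain, at 1777 and 1503 in Sin3B+/+ and 2672 and 3007 in Sin3B-/- (log2 ratio 0.79). The third was assigned to Zfp869 but lay 6097 bases upstream of it, between genes, with 1770 and 1766 in Sin3B+/+ and 2295 and 2566 in Sin3B-/- (log2 ratio 0.46). Strong peaks thus changed by 1.37-fold to 1.73-fold, with Zfp869 near the low end of the family. Zfp444, with SCAN and zinc finger domains, had a strong peak over its start (1337 and 1256, then 1944 and 2056, log2 ratio 0.63). A second Zfp444 peak 853 bases upstream was weaker (207 and 214, then 360 and 366, log2 ratio 0.79).

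Several members have known roles outside DNA binding by KRAB proteins or have a defined target. Of 42 genes of known role that were looked up, 11 had a listed peak (26.2%, 95% Wilson interval 15.3 to 41.1), against 18.3% of all annotated Zfp genes, which lies within that interval. Zfp809, which binds the primer binding site of murine leukemia viruses and recruits Trim28 to silence them, had a promoter peak of 583 and 455 in Sin3B+/+ and 737 and 865 in Sin3B-/- (log2 ratio 0.63). The peak assigned to Zfp36 lay between genes, 3553 bases past its start and 3208 bases upstream of Plekhg2, with 387 and 255 in Sin3B+/+ and 515 and 510 in Sin3B-/- (log2 ratio 0.67). Both were higher by less than the table's median. Zfp91, a ubiquitin ligase, had an intron peak of 170 and 150 in Sin3B+/+ and 249 and 240 in Sin3B-/- (log2 ratio 0.61). Zfp746, known as PARIS and as a repressor of Ppargc1a, had an intron peak of 160 and 110 in Sin3B+/+ and 202 and 246 in Sin3B-/- (log2 ratio 0.73). At Zfp407, Zfp532 and Zfp710 intron peaks had log2 ratios of 0.71, 0.73 and 0.94, and at Zfp800, whose peak lay in an intron 57898 bases upstream of the nearest start of the gene, levels went from 31.9 and 26.4 in Sin3B+/+ to 60 and 57 in Sin3B-/-. The nearest annotated start was of another gene for 16 of the 78 peaks, among them Zfp36, Zfp407, Zfp532, Zfp710 and Zfp800, so their assignment to the Zfp gene rests on the deposited table.

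Zfp genes with a listed peak lay on 17 of 20 chromosomes, and 42 of the 78 peaks (53.8%) were on 3 of them. Chromosome 7 held 18 of the 78 peaks (23.1%), against 8.57% of the table, chromosome 17 held 15 (19.2%, against 6.15%) and chromosome 13 held 9 (11.5%, against 4.18%). These chromosomes also hold the most annotated Zfp genes, with 92, 46 and 36 of 394 protein-coding ones. Of the 394, 72 had a listed peak (18.3%, 95% Wilson interval 14.8 to 22.4), and of the 21557 other protein-coding genes 3375 did (15.7%, 15.2 to 16.1). With starts chained at up to 500 kb, 38 of the 74 genes (51.4%) lay in 13 chains. Among these was Zfp335 with its antisense gene Zfp335os. Of the 394 annotated genes 268 (68.0%) lay in chains. The 74 were chained only to each other and the 394 within their full set. A sparser set chains less, so the 2 shares do not show whether genes with a listed peak are less clustered. The 39 peaks of chained genes had a median log2 ratio of 0.73, from 0.46 to 1.75, and the 39 of lone genes 0.67, from -2.24 to 1.80.

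The largest chain was 8 genes over 754 kb of chromosome 13, at chr13:67038596-67792512, where 22 protein-coding Zfp genes are annotated. In order along the chromosome they were Zfp712, Zfp708, Zfp759, Zfp458, Zfp729b, Zfp729a, Zfp738 and Zfp493. All 8 peaks covered the start of their gene. Mean levels differed several-fold, from 66.0 in Sin3B+/+ and 119 in Sin3B-/- at Zfp759 to 393 and 704 at Zfp712. The log2 ratios stayed between 0.69 and 0.85, with a median of 0.78. This was close to the median of the whole table, 0.76, with a middle range from 0.63 to 0.97. With centred libraries the 8 estimates ran from -0.06 to 0.09, and none was called. At Zfp712 the libraries gave 425 and 360 in Sin3B+/+ and 742 and 667 in Sin3B-/-. At Zfp708 they gave 258 and 264, then 466 and 467. At Zfp493, at the far end, they gave 119 and 98.4, then 183 and 169. The 14 other Zfp genes had no listed peak, and 11 of them, from Zfp457 at 268 kb to Zfp748 at 515 kb from the start of the chain, followed each other without a break. The table holds called peaks only, so the accessibility of these 14 starts was not analysed here. Only 1 listed peak in the chain belonged to a gene of another name, Gm28557, and it was higher in Sin3B-/- as well.

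**Figure D4:**
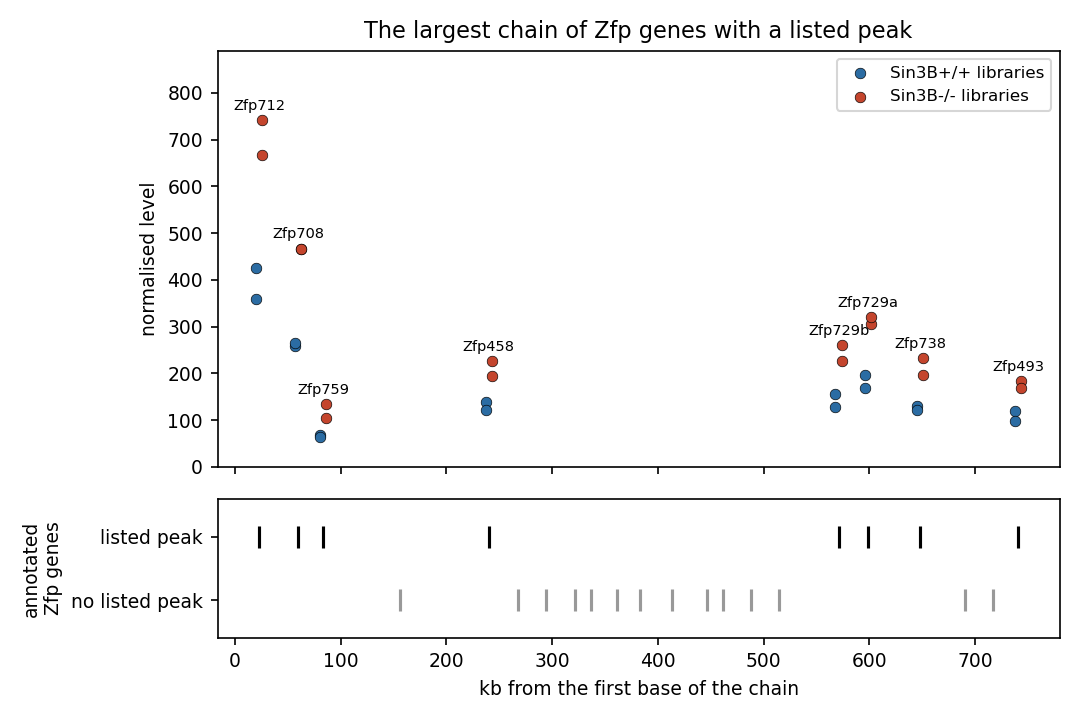
The upper panel gives the normalised level of each library (Sin3B+/+ blue, Sin3B-/- red) at the 8 Zfp starts with a listed peak, by distance in kb from the first base of the chain. The lower panel marks the 22 annotated Zfp genes with and without a listed peak, and shows the stretch from 268 to 515 kb with none.

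Chromosome 17 held 3 of the 5 largest chains. In the first, at chr17:21962552-22377281, Zfp943, Zfp994, Zfp944 and Zfp758 had log2 ratios of 0.96, 0.56, 1.15 and 0.88. Zfp943 had levels of 151 and 111 in Sin3B+/+ and 277 and 233 in Sin3B-/-, and Zfp758 had 116 and 114, then 216 and 208. Zfp994 had 202 and 205, then 306 and 294, the least change of the 4. The Zfp944 peak, with 21.2 and 21.6, then 53.7 and 41.0, lay just beside that of Zfp758, which also covered a start of Zfp944, since these genes start back to back, and it counted as a promoter through the Zfp758 start. The Zfp943 peak likewise covered a start of Zfp942. In the second chain, at chr17:22846697-23599487, Zfp945, Zfp40 and Zfp13 had 0.67, 0.63 and 0.51. In the third, at chr17:55864892-55949500, Zfp119a, Zfp959 and Zfp119b had 0.62, 0.73 and 0.75, and all 3 annotated protein-coding genes there had a listed peak, though that of Zfp119b lay past the end of the gene, 13301 bases from its start. Zfp119a had levels of 218 and 208 in Sin3B+/+ and 319 and 335 in Sin3B-/-, and Zfp959 had 184 and 185, then 323 and 287. The remaining one, at chr7:6172226-6396915, held Zfp444, Zfp667, Zfp78 and Zfp28, with ratios from 0.52 at Zfp28 to 0.79 at the upstream Zfp444 peak.

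Near copies bear on these values. A 32-base word with another exact copy in the genome cannot be placed by itself, and how reads with several placements were treated is not given in the sources used here. More than 10% of such words were repeated in 18 of the 78 Zfp peaks (23.1%), against 7.31% of the other listed peaks. More than 50% were repeated in 5 Zfp peaks (6.41%), against 0.666%. These were Zfp959 (69.1%), Zfp119a (62.9%), Zfp971 (61.3%), Zfp943 (59.7%) and Zfp758 (57.7%), with Zfp971 named after its values were seen. The Zfp943 and Zfp758 peaks lie 399 kb apart and share an unbroken run of 293 identical bases, and the Zfp119a and Zfp959 peaks, 13.2 kb apart, one of 261. The run of Zfp943 and Zfp758 takes up most of the promoters printed above, while that of Zfp119a and Zfp959 lies past their starts. Reads from 1 gene of such a pair may have been counted at the other, so the values of these 4 peaks are uncertain one by one. Their log2 ratios, from 0.62 to 0.96, lay inside the range of the family. In the chain on chromosome 13 the share of repeated words had a median of 14.9%, with 4 of the 8 peaks above 10% and the highest, 37.9%, at Zfp458. Without the 18 peaks above 10%, the median log2 ratio of the family was 0.67, and the promoter share was 46.7% (34.6 to 59.1), against 33.4% of the other listed peaks treated alike.

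**Figure D5:**
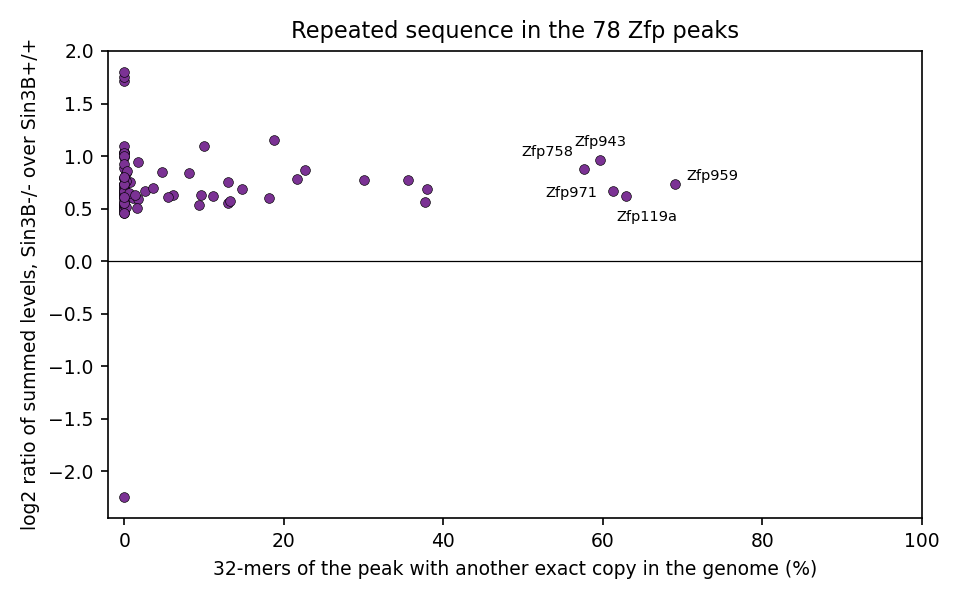
Each point is 1 of the 78 Zfp peaks, with the percentage of its 32-base words that have another exact copy in the genome across and its log2 ratio (Sin3B-/- over Sin3B+/+) up. The 5 named peaks lie above 50%, with log2 ratios from 0.62 to 0.96, and the peaks with the largest gain and the loss lie at or near 0%.

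In base composition the Zfp promoter peaks were like the other listed promoters, with a median GC content of 59% against 60% and a ratio of observed to expected CpG of 0.659 against 0.729 over the central 300 bases. Of the motifs searched there, on both strands, the SP letters GGGCGGGG were in 15 of the 78 Zfp peaks (19.2%), against 11.4% of the others. Among promoters alone the shares were 25.6% and 24.7%. The YY1 core AAGATGGC was in 4 (5.13%, against 2.99%) and the CHR letters TTTGAA in 9 (11.5%, against 13.6%). In the chain on chromosome 13 the CHR letters were in 4 peaks (Zfp458, Zfp729b, Zfp729a and Zfp738), and the YY1 core in Zfp729b and Zfp738, whose peaks share an unbroken run of 82 bases. The ETS core and the NRF1 site were in 2 peaks each (2.56%, against 3.12% and 1.67%), the E2F letters in 1 (1.28%, against 1.24%) and the CTCF core consensus in 1 (1.28%, against 2.49%). The CRE TGACGTCA and the ZBTB33 letters TCTCGCGA were in none of these central windows, and in 2.02% and 0.742% of the others. Outside the windows, the run shared by the Zfp119a and Zfp959 peaks does hold the CRE letters. RefSeq promoters, from 250 bases before to 50 after a start, were at hand for 61 of the 74 genes. Of their 77 promoters 18 held the SP letters (23.4%), against 17.6% of 32851 promoters in all, and 7 held the ETS core (9.09%, against 3.89%). The ETS share was like that of the Zfp genes without a listed peak (9.73%). The CRE letters were in 2 of the 77 promoters (2.6%, against 1.79% of all).

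Of 23 genes for partners of KRAB proteins, 2 had a listed peak (8.7%, 95% Wilson interval 2.42 to 26.8), against 15.7% of annotated protein-coding genes other than Zfp genes. Cbx5, which encodes heterochromatin protein HP1 alpha, had a promoter peak with a log2 ratio of 0.53, and Chd3, a remodeller of the NuRD complex, a peak between genes with 1.24. Trim28 and Setdb1 had none. Other zinc finger families had fewer peaks, but how many annotated genes each holds was not counted, so these are not shares. The Zbtb genes had 10, of which 9 were higher in Sin3B-/- (95.7% of the table was) and 1 lower, with a median log2 ratio of 0.76. The Klf genes had 5 and the Zc3h genes 4, all higher, with medians of 0.77 and 0.70, and the Zscan and Zkscan genes had 1 each.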

How the data were processed

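ATAC-Seq was measured in 4 libraries of sorted LT-HSCs, 2 per genotype, and genotype and replicate number were taken from the sample labels. The authors used bowtie2 for alignment of trimmed reads, sambamba for duplicates and MACS2 for peaks, normalised and tested the peak set with DiffBind and DESeq2, and deposited peaks that passed. The table used here holds 5332 of these, fewer than the study describes, and the others were not analysed here. The deposited values per library are a signal, the reads per peak times 1 factor per library. The deposited columns of fold changes, p-values and FDR were not used. No tool versions are given in the sources used here. The labels name mm9, but all 78 Zfp gene IDs were found in GENCODE M21 (GRCm38) and 97.4% had the same start and end, so GRCm38 was used.

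Per peak, the log2 ratio of the summed Sin3B-/- over the summed Sin3B+/+ levels was computed, and limma (lmFit, eBayes with trend) was fitted on log2(level + 1) over all 5332 peaks with Benjamini-Hochberg adjustment at 0.05. Since the table holds scaled values, no count test was run. The pseudocount of 1 understates the change of low peaks. The fit was run on simulated data, in which 200 of 5332 peaks changed, as many up as down, with no shift common to all peaks. There, 100% of the 100 peaks changed by 1 log2 unit were recovered and 0.214% of the unchanged ones were called. The simulated spread was a set value rather than one taken from these libraries, and it held no shift between libraries of a genotype. In the data the Sin3B+/+ medians of log2(level + 1) were 7.75 and 7.5. The listed peaks were also selected, and 95.7% of them were higher in Sin3B-/-, so these rates do not carry over to them. The p-values rest on only 2 libraries per genotype. With eBayes, the variance of each peak is drawn toward that of peaks of like level. A standard error is therefore not the spread of that peak's libraries alone. It was 0.23 at the second Zfp664 peak, whose Sin3B+/+ levels were 89.2 and 52.8. At Zfp710, with Sin3B+/+ levels of 45.0 and 45.9, it was 0.26. Intervals are 95% Wilson intervals and cover counting only. Peaks were named if they were among the 5 largest changes in each direction, the 3 highest levels, genes with 2 peaks, the 5 largest chains or a list of 42 genes of known role, and others named in the text were chosen after their values were seen. The members, lists, motifs and rules were chosen with earlier results of these data known. Alternatives were a replicate block, a pseudocount of 8, a level filter, an adjusted p of 0.01, centred libraries, each library left out, and other promoter and chain definitions. Software was Python 3.11.15, numpy 2.4.6, pandas 2.3.3, scipy 1.17.1, pysam 0.24.0, samtools 1.23.1, Biopython 1.88, matplotlib 3.10.9, R 4.3.3 and limma 3.58.1. Peaks that were not called different and protein sequences were not analysed here.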

Additional observations from a re-analysis of the deposited data

How the results depend on the processing

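The count of Zfp peaks called higher, 77, was 51 with the replicate block (71.9% of the table was then called higher), 46 of the 46 Zfp peaks with a level above the table's median (99.8% of such peaks of the table), 3 with centred libraries, and from 23 to 77 when 1 library was left out. It was 77 with the larger pseudocount and 66 at an adjusted p of 0.01 (92.0% of the table). The count called lower, 1, was 0 above the median level, since Zfp423 lies below it, 3 with centred libraries and 1 with each library left out. A fit without 1 library assumes that the lone library of its genotype varies like the others. The median log2 ratio of 0.68 was -0.06 with centred libraries and from 0.60 to 0.80 with a library left out. It was 0.63 above the median level, 0.67 with 1 value per gene and 0.67 without peaks of repeated sequence. The promoter share of 55.1% was 33.3% by the deposited distance, 64.1% by the 500-base rule and 46.7% without peaks of repeated sequence. Chained genes numbered 30 at 200 kb and 45 at 1 Mb.

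Same-numbered libraries came from different mice. The differences between libraries 1 and 2 had a correlation of -0.101 between genotypes over the table. Whether same-numbered libraries were handled together is not in the sample labels, and this correlation over selected peaks cannot tell. With the crossed pairing as block, chosen after seeing the data, 77 were called higher and 1 lower. That fit called 100% of the table, 5103 peaks higher and 229 lower, so it does not set the Zfp peaks apart. Of 43 named peaks, 34 kept their call with the replicate block, which called 76.2% of the table, and 43 with the larger pseudocount. None of the 43 changed direction in these fits or with any 1 library left out.

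Centring subtracts the shift of the table's median, 0.752, and so turned 21 named peaks below 0 by construction. Their values were -0.30 at Zfp869, -0.26 at the Zfp385a start, -0.24 at Zfp13, -0.23 at Zfp28, -0.19 at Zfp994, -0.14 at Zfp119a, Zfp91 and Zfp667, -0.13 at the Zfp444 start, -0.12 at Zfp40 and Zfp809, -0.10 at Zfp78, -0.09 at Zfp945, -0.06 at Zfp458 and Zfp493, -0.05 at Zfp36, -0.04 at Zfp407, -0.03 at Zfp959 and Zfp532, -0.01 at Zfp746 and -0.0003 at Zfp119b. Of these 21 only Zfp869 passed the test there. Whether the genotypes differ in accessibility as a whole cannot be told from a table that holds only called peaks. The depth of the libraries beyond the listed peaks is unknown, and the lowest values rest on few reads.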
